A study of Mus musculus with 10 samples.

Results

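Transcript levels of 10 genes of bone morphogenetic protein (BMP) signaling were measured in crypts of the mouse jejunum, in 5 Arid3a cKO mice and 5 WT mice with 1 library each. The genes were taken by name, with earlier results of these data known. They were the ligands Bmp2 and Bmp4, the receptors Bmpr1a and Bmpr2, and the pseudoreceptor Bambi. With them were the inhibitory SMADs Smad6 and Smad7 and the target genes Id1, Id2 and Id3. These 10 genes are among the 54838 genes listed in each library, and 9 of them are among the 14719 genes with enough counts to be tested. The cKO mice were VillinCre-ERT2+/-; Arid3a fl/fl, a line in which the Villin promoter drives a tamoxifen-activated Cre recombinase in the intestinal epithelium, so that stromal, endothelial and immune cells keep Arid3a. WT and cKO mice both received tamoxifen on 3 consecutive days, and crypts were collected 1 month after the first injection. Whether WT mice carried Cre or floxed alleles was not stated, nor were the ages of these mice or their strain background. The animal identifiers in the labels form a separate series for each genotype, so that an effect of litter or colony and one of genotype cannot be told apart.

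BMPs are secreted ligands that bring together type I and type II receptor kinases, which phosphorylate SMAD1, SMAD5 and SMAD9. With SMAD4 these carry the signal to the nucleus, where the ID genes are among the most direct targets. ID proteins hold a helix-loop-helix but no DNA-binding region, and they pair with E proteins and keep them from DNA. In the small intestine BMP activity is low at the crypt base, where the surrounding mesenchyme secretes antagonists, and increases toward the villus, where it restrains proliferation and shapes the maturation of enterocytes.

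Promoter sequences were available in the RefSeq table used here (build GRCm38.p6) for 6 of the 10 genes: Bmp4, Bmpr1a, Bmpr2, Smad6, Id2 and Id3. Each window of the table runs from 250 bases before the transcription start through the first 50 bases of the transcript. Both strands were searched for GTCTAGAC (the palindromic SMAD box), GGCGCC (a GC-rich SMAD site), CAGAC (a short SMAD element that reads GTCTG on the other strand), and ATTAAA and ATCAAA (A+T-rich letters of the kind ARID3A prefers). The stretches around matches in Smad6, Id2 and Id3 are shown because they hold letters of the kind SMAD proteins bind, near the start of an inhibitor and of a pair of target genes of the pathway. They are written 5′ to 3′ on the strand of the gene, and capitals mark the matched motif.
Smad6, chr9:64022056-64022309, minus strand: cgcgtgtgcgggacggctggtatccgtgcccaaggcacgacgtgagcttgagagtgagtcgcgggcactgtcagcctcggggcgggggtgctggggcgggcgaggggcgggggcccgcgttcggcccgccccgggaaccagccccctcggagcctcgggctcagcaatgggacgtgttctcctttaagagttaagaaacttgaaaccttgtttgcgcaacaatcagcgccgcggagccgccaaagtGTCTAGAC
Id2, chr12:25096254-25096342, minus strand: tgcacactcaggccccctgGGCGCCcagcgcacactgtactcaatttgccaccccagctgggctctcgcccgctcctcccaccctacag
Id3, chr4:136143645-136143669, plus strand: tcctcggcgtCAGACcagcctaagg
Id3, chr4:136143744-136143768, plus strand: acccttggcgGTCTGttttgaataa
By the GENCODE annotation the Smad6 stretch is upstream of the gene but for its last 4 bases, which lie in the 5′ UTR of exon 1. The Id2 stretch lies in an intron of its longest transcript and upstream of the others, and both Id3 stretches lie in the 5′ UTR of a transcript with an earlier start. In the Smad6 window GTCTAGAC began 4 bases before the start (position −4), and 0.213% of all 32851 promoters in the table held it. The Id2 window held GGCGCC once, at −231, and 11.9% of promoters hold that motif. In the Id3 window CAGAC was found at −167 and, on the other strand, at −68, and 49.6% of promoters hold it on either strand, so its presence is ordinary. GGCGCC also stood in the windows of Bmpr1a (−198) and Bmpr2 (−105). ATTAAA, held by 13.9% of promoters, was in none of the 6 windows, and ATCAAA, held by 11.9%, was found once, in that of Bmpr2, 37 bases from its start. The searched motifs do not contain each other, and a match is a description of letters, not a measured binding site.

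The libraries held 27050455 to 28152743 counts in WT and 28314069 to 31053622 in cKO mice. Levels are given as CPM, counts scaled to a common library size with TMM factors. Before those factors, 1 CPM was worth 27 to 31 counts. Arid3a, the deleted gene (chr10:79927043-79955018), had 55, 60, 81, 80 and 74 counts in WT replicates 1 to 5 and 9, 14, 14, 26 and 31 counts in cKO replicates 1 to 5. Every cKO library lay below every WT library, at 0.673 ± 0.350 against 2.42 ± 0.397 CPM (SD, n = 5 each; log2 fold change, log2FC, cKO against WT, −1.84, standard error, SE, 0.32, adjusted p = 0.00204 in edgeR). Reads of the whole gene were counted, so transcripts of a deleted allele and of cells without Cre are included. Epithelial markers summed to 4598 to 5066 TPM (the deposited level, scaled by transcript length and library) in WT and 4610 to 5433 TPM in cKO libraries, led by Krt19 and Krt8. Villus enterocyte markers, led by Fabp1 and Fabp2, summed to 1800 to 7954 TPM in WT and 8242 to 16029 TPM in cKO, without overlap, and 10 of 11 were higher. Crypt base markers, led by Lyz1 and Olfm4, summed to 8153 to 15464 TPM in WT and 5725 to 7522 TPM in cKO, without overlap. Of these, 6 of 7 were lower. Over all tested genes, 15.6% were called higher and 12.7% lower in cKO (edgeR, adjusted p below 0.05). WT replicates 3 and 4 had the lowest villus sums (2578 and 1800 TPM) and the highest crypt base sums (15464 and 12486 TPM). WT replicate 1 was close to replicate 4 in its crypt base sum (11556 TPM). In these bulk libraries, fewer cells of a type and less RNA per cell cannot be told apart.

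Of the 9 tested genes, 3 differed between the genotypes: Bmp2 and Smad7 were higher and Bambi was lower in Arid3a cKO crypts, while the receptors, Smad6 and the ID genes did not pass the test. A gene was called where the Benjamini-Hochberg adjusted p of edgeR's quasi-likelihood test, taken over all 14719 genes, was below 0.05. By that rule 28.3% of all tested genes were called (15.6% higher and 12.7% lower), so 3 of 9 (33.3%) is near the background. Without WT replicates 3 and 4 together 14.2% (of 15072 genes) were called. Under the other alternatives the share was 12.1% (no filter on low counts, of 27960 genes) to 37.8% (library size only, of 14719 genes). The last of these scalings called 1541 genes higher and 4030 lower, beside 2298 higher and 1869 lower here. The median log2 fold change was 0.04 over the 9 genes and −0.03 over all tested genes. Groups without overlap were found for 1 of the 9 genes, Bambi, and for 19.6% of all tested genes. The genes are described one by one, in the order of their roles.

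**Figure D1:**
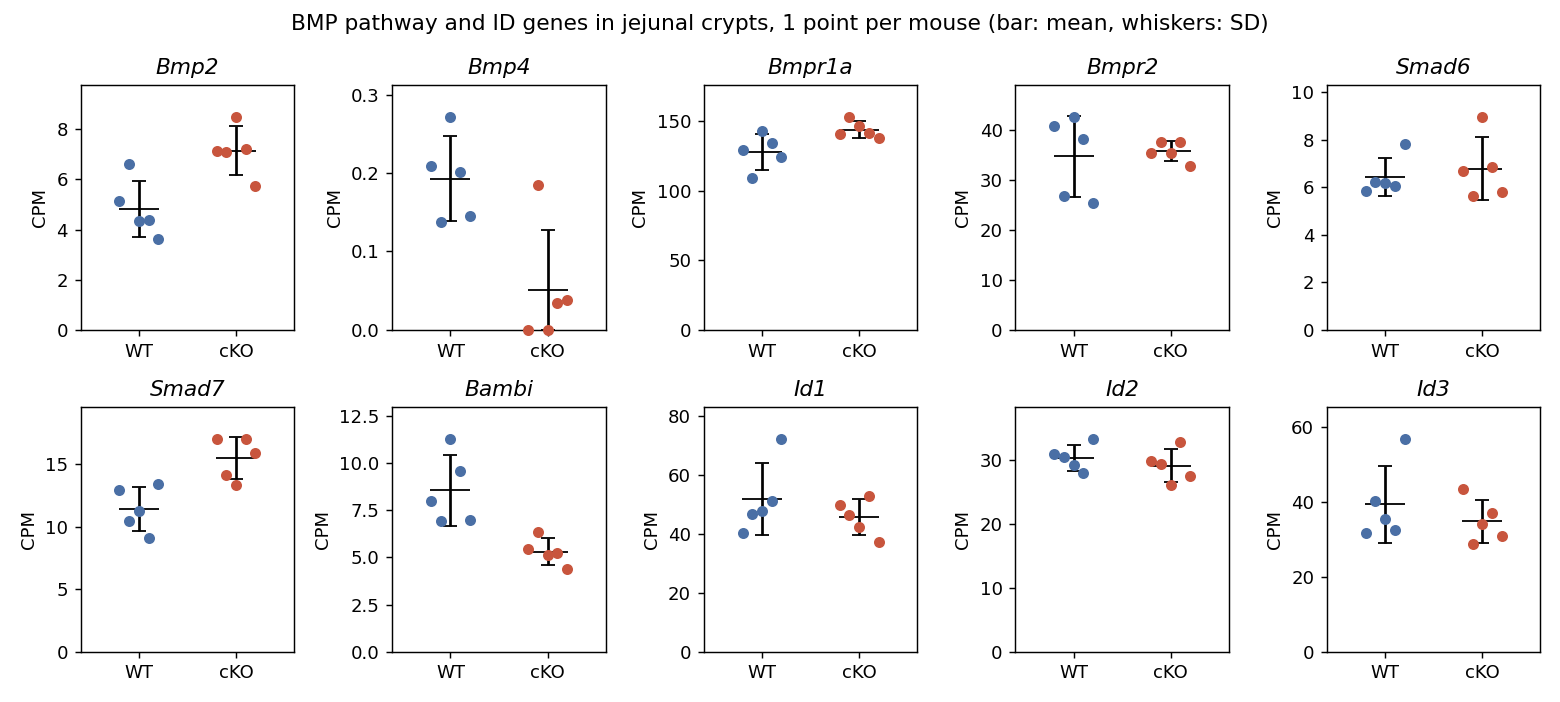
CPM of the 10 genes (y axis of each panel, starting at 0) in the 5 WT and 5 cKO mice, 1 point per mouse, with the mean (horizontal bar) and the SD (whiskers, stopped at 0 for Bmp4). Bambi is the only gene whose cKO points all lie below its WT points, Bmp2 and Smad7 have 4 of 5 cKO points above the highest WT point, and the points of Id1, Id2 and Id3 overlap.

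Bmp2, a ligand that villus epithelial cells are known to make (chr2:133552159-133562885, plus strand, a single annotated transcript), was higher in cKO crypts. WT replicates 1 to 5 had 5.15, 6.61, 4.34, 4.39 and 3.64 CPM, and cKO replicates 1 to 5 had 7.14, 7.12, 8.50, 7.21 and 5.75 CPM. The groups overlapped only through WT replicate 2 and cKO replicate 5, and the other 4 cKO libraries lay above every WT library. From 4.83 ± 1.13 CPM in WT to 7.14 ± 0.971 CPM in cKO (SD, n = 5 each), Bmp2 increased by 0.57 on the log2 scale (SE 0.16; edgeR, Benjamini-Hochberg adjusted p = 0.0222). The call did not hold in every fit with 1 library left out. It was lost without WT replicate 3 (0.53, edgeR adjusted p = 0.0516), WT replicate 4 (0.53, adjusted p = 0.0531) or cKO replicate 3 (0.50, adjusted p = 0.0556). Without WT replicates 3 and 4 together the call was lost as well (0.48, edgeR adjusted p = 0.127). It was also lost with scaling by library size only (0.44, adjusted p = 0.0581) and in limma fits of TPM values (0.46 and 0.39 on log2(TPM + 0.1) and log2(TPM + 0.5)). The villus marker sums were also higher in cKO crypts. Within WT, replicate 2 was highest in both Bmp2 and the villus sum (7954 TPM). Within cKO, replicate 3 had the highest Bmp2 and the lowest villus sum (8242 TPM). The part of the villus markers in the Bmp2 difference was not tested.

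Bmp4, the ligand known mainly from mesenchymal cells under the epithelium (chr14:46383520-46390669, minus strand), was close to absent from these crypts. It was counted 6, 4, 8, 6 and 4 times in WT replicates 1 to 5, and 0, 5, 0, 1 and 1 times in cKO replicates 1 to 5. All cKO libraries but replicate 2 lay below the lowest WT library, and replicate 2 fell within the WT range. These counts, 28 in all WT and 7 in all cKO libraries, were too few to enter the main test. When no filter on low counts was set, Bmp4 did not pass either (log2FC −1.84, SE 0.79, adjusted p = 0.143 in edgeR). The 11 fibroblast markers, led by Vim and Dcn, summed to 14.7 to 62.0 TPM in WT and 12.1 to 78.3 TPM in cKO libraries, and 0 of the 9 tested ones were called in edgeR (0 also at an unadjusted p below 0.05, and 0 by DESeq2 or voom). None of the 11 was at 0 in all libraries. The highest fibroblast sums were those of cKO replicate 4 (78.3 TPM, 1 Bmp4 count) and WT replicate 3 (62.0 TPM, 8 Bmp4 counts), and the lowest that of cKO replicate 2 (12.1 TPM, 5 Bmp4 counts). The part of such cells in the Bmp4 counts was not tested.

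Within each library, the log2 ratio of Bmp2 to Bmp4 counts was 4.53 ± 0.55 in WT and 7.32 ± 1.57 in cKO (SD, n = 5 each). The groups overlapped, again through cKO replicate 2 (5.14). The ratio was higher in cKO by 2.79 (two-sided exact permutation test over 252 assignments, p = 0.0159), which did not pass after adjustment over the 6 ratios compared (adjusted p = 0.0952). With 0 to 8 Bmp4 counts a library, its size depends on the pseudocount and went down to 1.30 under other settings.

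Bmpr1a, the type I receptor through which most epithelial BMP signal passes (chr14:34410734-34503341, minus strand), did not pass the test. Its level was 129, 109, 143, 134 and 124 CPM in WT replicates 1 to 5 and 141, 153, 146, 141 and 138 CPM in cKO replicates 1 to 5. The groups overlapped, with cKO libraries in the upper part of the WT range or just above it. The means were 128 ± 12.7 and 144 ± 6.01 CPM (SD, n = 5 each), a log2 difference of 0.17 with a standard error of 0.07 (edgeR adjusted p = 0.104), and 2 SE either side reached from 0.02 to 0.32. Without WT replicates 3 and 4 it was 0.25 and passed (edgeR adjusted p = 0.0480), whereas it was 0.085 with the effective length as an offset (adjusted p = 0.539), 0.037 with library size only (adjusted p = 0.738) and −0.01 in the limma fits of TPM values, which change both the length and the scaling. The length assigned to Bmpr1a was 4690 ± 262 bases in WT and 4984 ± 120 bases in cKO (SD, n = 5 each), and 3.77% of the 50-base windows of its transcripts also occur in the gene Gm17110.

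Bmpr2, the type II receptor (chr1:59763400-59879014, plus strand), had 40.9, 26.8, 42.7, 38.2 and 25.3 CPM in WT replicates 1 to 5 and 35.4, 37.7, 35.5, 37.6 and 32.7 CPM in cKO replicates 1 to 5. The cKO libraries lay close together inside the range of the WT libraries, of which replicates 2 and 5 were low. The means of 34.8 ± 8.13 and 35.8 ± 2.04 CPM (SD, n = 5 each) differed by 0.04 on the log2 scale, with a standard error of 0.14 (edgeR adjusted p = 0.845). The interval of 2 standard errors reached from −0.24 to 0.32, and the sign turned with scaling by library size only (−0.09), on the TPM scale (−0.02) and without WT replicate 2 (−0.04) or 5 (−0.03). Without WT replicates 3 and 4 together it was 0.21 (edgeR adjusted p = 0.358). The log2 ratio of Bmpr1a to Bmpr2 within a library averaged 1.91 in WT (SD 0.25, n = 5) and was higher by 0.10 in cKO libraries (SD 0.06, n = 5; two-sided exact permutation test p = 0.452, adjusted p = 0.724).

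Bambi, a pseudoreceptor that resembles a type I receptor but lacks its kinase domain and dampens BMP and TGF-beta signals (chr18:3507923-3516404, plus strand, a single annotated transcript), was lower in cKO crypts. In WT replicates 1 to 5 its level was 7.97, 6.92, 11.3, 9.58 and 6.98 CPM, and in cKO replicates 1 to 5 it was 5.46, 6.34, 5.11, 5.24 and 4.39 CPM. All cKO libraries lay below all WT libraries, which was so for 7.62% of all tested genes, and WT replicates 3 and 4 were the highest. Mean Bambi went from 8.55 ± 1.88 CPM down to 5.31 ± 0.703 CPM (SD, n = 5 each), and the log2FC was −0.69 (SE 0.15; edgeR, Benjamini-Hochberg adjusted p = 0.00750). It stayed called without any single mouse, at −0.76 to −0.57. Without WT replicates 3 and 4 together it was −0.46 and just missed the threshold (edgeR adjusted p = 0.0524). The part of the crypt base markers, which were highest in those same libraries, was not tested.

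Smad7, an inhibitory SMAD that BMP and TGF-beta signals induce and that blocks their receptors (chr18:75367529-75395935, plus strand), was higher in cKO crypts. WT replicates 1 to 5 held 12.9, 10.4, 11.2, 9.08 and 13.4 CPM. The cKO libraries held 17.0, 14.1, 13.4, 17.0 and 15.9 CPM in replicates 1 to 5. The groups touched at a single point, where cKO replicate 3 (13.36 CPM) lay just under WT replicate 5 (13.38 CPM), and the other 4 cKO libraries were above all WT libraries. The mean rose from 11.4 ± 1.77 to 15.5 ± 1.68 CPM (SD, n = 5 each; log2FC 0.44, SE 0.12, adjusted p = 0.0162 in edgeR). Leaving out any single mouse gave 0.37 to 0.52 and kept the call, and leaving out WT replicates 3 and 4 together did not (0.34, edgeR adjusted p = 0.0918). The transcripts assigned to Smad7, of which 5 are annotated, averaged 3423 ± 316 bases in WT and 3687 ± 366 bases in cKO (SD, n = 5 each), and with that length as an offset the log2 fold change was 0.35 (edgeR adjusted p = 0.0543). On log2(TPM + 0.1) it was 0.24 (limma adjusted p = 0.221), and the part of the villus markers was not tested.

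Smad6, the other inhibitory SMAD and the one more specific to BMP signals (chr9:63953076-64022059, minus strand; the promoter with GTCTAGAC above), did not pass the test. Its level was 5.85, 6.23, 6.18, 6.03 and 7.82 CPM in WT replicates 1 to 5 and 6.67, 5.64, 8.95, 6.84 and 5.79 CPM in cKO replicates 1 to 5. A single library in each group, WT replicate 5 and cKO replicate 3, stood above the rest, and the groups overlapped. The log2 difference was 0.08 with a standard error of 0.14 (6.42 ± 0.795 against 6.78 ± 1.32 CPM, SD, n = 5 each; edgeR adjusted p = 0.705), and 2 standard errors either side reached from −0.21 to 0.36. The sign turned without cKO replicate 3 (−0.04) and with scaling by library size only (−0.05), a scaling that moves the median of all genes by −0.13. It was 0.03 without WT replicates 3 and 4 together and 0.18 without WT replicate 5. Within a library, the log2 ratio of Smad6 to Smad7 was −0.82 ± 0.20 in WT and −1.20 ± 0.35 in cKO (SD, n = 5 each; difference −0.38, exact permutation test p = 0.0873, adjusted p = 0.262), so a different change of the 2 inhibitory SMADs was not shown.

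**Figure D2:**
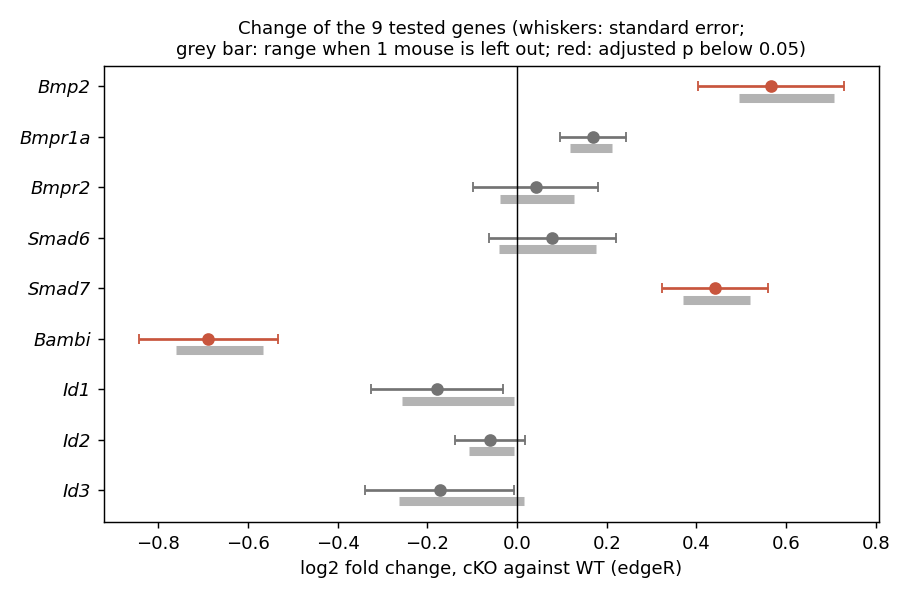
Log2 fold change of the 9 tested genes, cKO against WT, from edgeR (x axis), with points for the estimate, whiskers for its standard error, and a grey bar for the range when 1 mouse is left out. Bmp2, Smad7 and Bambi (red, adjusted p below 0.05) keep their sign over that range, and Bmpr2, Smad6 and Id3 do not.

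The ID genes did not pass the test in either direction. Id1 (chr2:152736251-152737410, plus strand) had 40.1, 46.8, 47.8, 51.1 and 72.2 CPM in WT replicates 1 to 5 and 49.6, 46.3, 42.3, 52.7 and 37.1 CPM in cKO replicates 1 to 5. Apart from WT replicate 5, which was far above the rest, the groups covered much the same range. Means of 51.6 ± 12.2 CPM for WT and 45.6 ± 6.14 CPM for cKO (SD, n = 5 each) gave a log2 difference of −0.18 with a standard error of 0.15 (edgeR adjusted p = 0.389). The interval of 2 SE either side reached from −0.47 to 0.12. Without WT replicate 5 the difference was −0.01.

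Id3 (chr4:136143497-136145755, plus strand; the promoter with CAGAC above) had the same high library. Its level was 31.6, 40.2, 35.2, 32.4 and 56.8 CPM in WT replicates 1 to 5, and 43.4, 28.8, 34.1, 36.9 and 30.9 CPM in cKO replicates 1 to 5. WT replicate 5 was the highest of all 10, and 2 cKO libraries lay under the lowest WT library. The log2 difference was −0.17 with a standard error of 0.17 (39.2 ± 10.4 against 34.8 ± 5.73 CPM, SD, n = 5 each; edgeR adjusted p = 0.464; 2 standard errors either side, −0.50 to 0.16), and it became 0.01 without WT replicate 5 and −0.30 without WT replicates 3 and 4 together (edgeR adjusted p = 0.321).

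Id2 (chr12:25093799-25097140, minus strand; the promoter with GGCGCC above) varied least of the 3. WT replicates 1 to 5 had 30.9, 30.5, 29.2, 28.0 and 33.4 CPM, and the cKO replicates had 29.9, 29.4, 26.1, 32.9 and 27.5 CPM. The groups overlapped, and WT replicate 5 was again the highest, but by little. The means of 30.4 ± 2.03 and 29.1 ± 2.59 CPM (SD, n = 5 each) gave a log2 difference of −0.06 with a standard error of 0.08 (edgeR adjusted p = 0.590). Its interval of 2 standard errors, −0.22 to 0.10, was the narrowest among the ID genes. The small difference moved with single mice, from −0.11 without cKO replicate 4 to −0.01 without WT replicate 5, and was −0.12 without WT replicates 3 and 4 together and −0.19 with library size only (edgeR adjusted p = 0.0800).

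**Figure D3:**
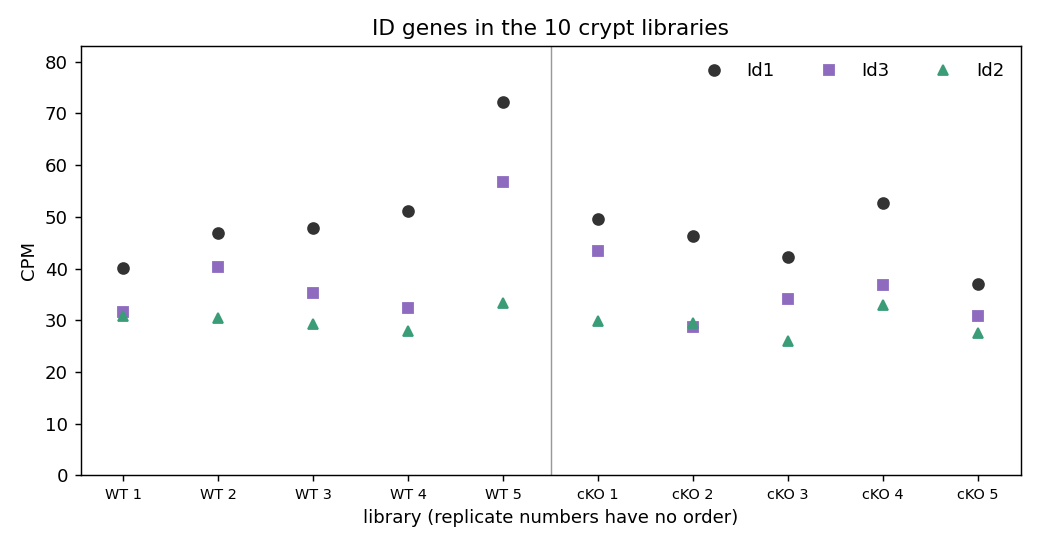
CPM (y axis, from 0) of Id1 (circles), Id3 (squares) and Id2 (triangles) in each of the 10 libraries (x axis, WT left of the line and cKO right). WT replicate 5 holds the highest value of each gene, 72.2 CPM for Id1, 56.8 CPM for Id3 and 33.4 CPM for Id2, and elsewhere the groups overlap.

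The ratios of the ID genes to each other also did not separate the genotypes. The log2 ratio of Id1 to Id2 was 0.74 ± 0.28 in WT and 0.64 ± 0.12 in cKO (SD, n = 5 each), a difference of −0.10 (two-sided exact permutation test, p = 0.5, adjusted p = 0.724). For Id1 to Id3 the difference was −0.01 (exact permutation p = 0.944, adjusted p = 0.944), and for Id2 to Id3 it was 0.09 (exact permutation p = 0.603, adjusted p = 0.724).

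Genes whose pattern over the 10 libraries was most like that of an ID gene were sought among 9208 tested genes with a mean of at least 10 CPM, by the root mean square difference of log2 CPM after each gene was centred on its mean. Nearest to Id1 were Nme3 (0.09), Twnk (0.11) and Tmem199 (0.12), and nearest to Id3 were Mrps12 (0.12), Tmem199 (0.13) and Atf5 (0.13). As a scale for these values, Id1 itself departed from its mean by 0.25 and Id3 by 0.27. All 5 of these genes were highest in WT replicate 5, as Id1 and Id3 were, which follows largely from their choice by likeness. Id3 ranked 56 in likeness to Id1 (0.16) and Id1 ranked 20 in likeness to Id3 (0.16), while Id2 ranked 407 and 719. This is a description only. Every cKO library held more counts than any WT library, and whether the libraries were prepared together is not known here. The part of depth or preparation in the likeness was not tested.

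Per transcript length, the 10 genes covered a wide range of levels. Over all 10 libraries the mean was 72.1 TPM for Id1, 40.1 TPM for Id3, 35.2 TPM for Bmpr1a and 31.8 TPM for Id2. Far below came Smad7 at 4.70 TPM, Bmpr2 at 3.46 TPM, Smad6 at 2.93 TPM, Bmp2 at 2.15 TPM, Bambi at 1.76 TPM and Bmp4 at 0.12 TPM. Not every step in this order stood out from the spread. Id1 was above Id3, Id2 above Smad7, Smad6 above Bmp2, and Bambi above Bmp4 in 10 of 10 libraries, and Smad7 was above Bmpr2 in 9. By contrast, Id3 exceeded Bmpr1a in 5, Bmp2 exceeded Bambi in 6, and Bmpr1a exceeded Id2 and Bmpr2 exceeded Smad6 in 7. Between the genotypes, Bmp2 and Bambi changed places: Bambi had the higher mean in WT (2.24 ± 0.579 against 1.81 ± 0.425 TPM) and Bmp2 in cKO (2.50 ± 0.357 against 1.29 ± 0.165 TPM; SD, n = 5 each). This exchange of order was not tested by itself.

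**Figure D4:**
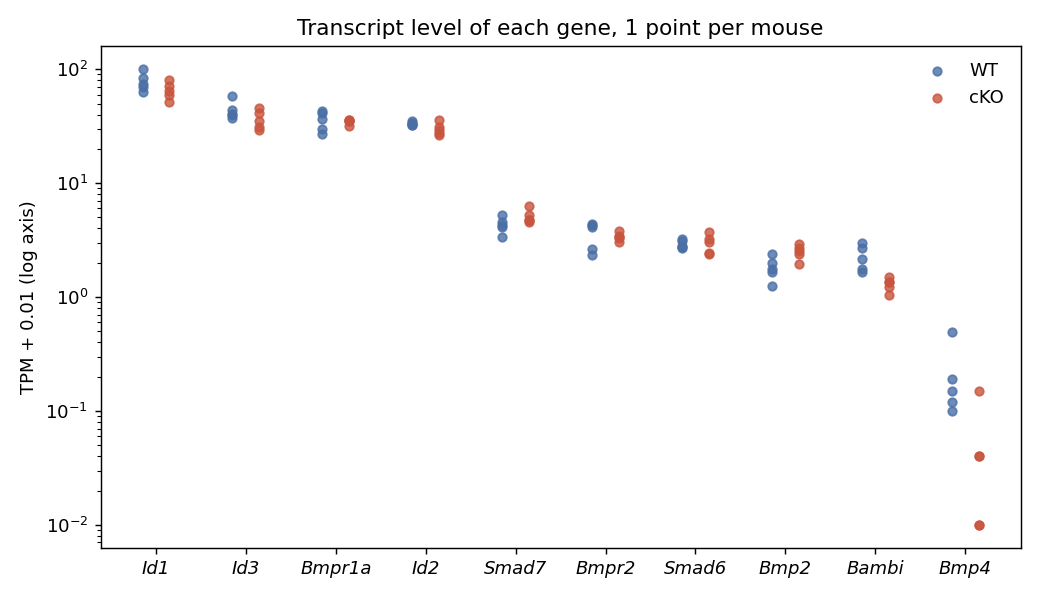
Level of each gene in TPM plus 0.01 (y axis, log scale) in each mouse, WT in blue and cKO in red, with the genes on the x axis in order of their mean. Id1, Id3, Bmpr1a and Id2 lie at 26.6 TPM or above in all libraries, Bmp4 lies below 1 TPM, and the cKO points of Bmp2 lie above those of Bambi.

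The rest of the pathway was read from 7 lists of further ligands, antagonists, receptors, SMAD regulators, targets, TGF-beta genes and E proteins, 71 genes in all. Of these, 45 were tested and 10 were called, 4 higher and 6 lower in cKO, which is 22.2% beside 28.3% of all tested genes. Their median log2 fold change was −0.12. Without WT replicate 3 the number called was 6, and without cKO replicate 2 it was also 6. The split depended on the scaling, with 15 called (3 higher, 12 lower) with library size only and 8 (1 higher, 7 lower) on either TPM scale.

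Among 12 other BMP ligands 5 were tested, and 1 was higher and 1 lower (40% called, beside 28.3% of all tested genes). Bmp3, an atypical ligand that opposes other BMPs, rose from 33.8 ± 3.18 to 49.5 ± 8.79 CPM (SD, n = 5 each; log2FC 0.55, SE 0.12, adjusted p = 0.00566 in edgeR). Bmp7, which signals as Bmp2 and Bmp4 do, fell from 17.9 ± 3.60 to 12.4 ± 0.481 CPM (SD, n = 5 each; log2FC −0.53, SE 0.12, adjusted p = 0.00913 in edgeR). Neither overlapped between the genotypes. On the TPM scale Bmp3 was no longer called, and Bmp7 was not called without WT replicates 3 and 4. So of the 3 ligands called, Bmp2 and Bmp3 were higher and Bmp7 was lower.

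The antagonists, which bind ligands outside the cell, were mostly too low to test: 9 of 13 did not pass the filter on counts, and Nog, the best known of them, had at most 1 count in any library. Of the 4 tested, 0 were called in edgeR (0 also at an unadjusted p below 0.05, and 0 by DESeq2 or voom), at a median log2 fold change of −0.30. Under other settings 1 was called lower with library size only, with the length offset, on either TPM scale, and without WT replicate 4 or cKO replicate 4. Of 8 other receptors and coreceptors 6 were tested and 1 was called (16.7%, beside 28.3% of all tested genes). This gene was Acvr2a, a type II receptor, which rose from 27.4 ± 2.99 to 37.7 ± 3.10 CPM without overlap (SD, n = 5 each, with log2FC 0.46, SE 0.09, adjusted p = 0.00344 in edgeR). Its call was lost on the TPM scale.

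All 12 SMAD effectors and regulators were tested, and 2 were called (16.7%, beside 28.3% of all tested genes). The median log2 fold change over the list was 0.00. Skil, a corepressor of SMAD complexes, was higher in cKO (28.3 ± 2.47 to 36.1 ± 3.87 CPM, SD, n = 5 each; log2FC 0.35, SE 0.09, adjusted p = 0.0123 in edgeR). Ube2o, an enzyme of ubiquitin transfer that modifies SMAD6, was lower (18.4 ± 2.57 to 14.9 ± 0.296 CPM, SD, n = 5 each; log2FC −0.30, SE 0.10, adjusted p = 0.0341 in edgeR). Neither call was firm: that of Skil was lost by library size only, on the TPM scale and without WT replicates 3 and 4 together, and that of Ube2o without that pair, and without any of WT replicates 3, 4 and 5 or of the 5 cKO replicates (−0.35 to −0.24 when each mouse was left out). Beyond Id1, Id2 and Id3, 4 of 10 other BMP targets could be tested and 0 were called in edgeR, at a median of −0.19 (1, Atoh8, at an unadjusted p below 0.05, and 0 by DESeq2 or voom). The direction changed between settings: the median was 0.03 with 1 called higher without WT replicate 1, −0.49 with 1 called lower without cKO replicate 4, −0.31 with 1 called lower with library size only, and 0.08 with no filter on low counts.

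In the neighbouring TGF-beta pathway, which shares SMAD4, Smad7 and Bambi with BMP signaling, 12 of 14 genes were tested, and 1 was higher and 3 were lower. Together these are 33.3% of the tested genes of the list, which is near the 28.3% called over all tested genes. Tgfbi, a secreted matrix protein that TGF-beta induces, rose from 54.3 ± 14.6 to 110.3 ± 27.3 CPM (SD, n = 5 each; log2FC 1.02, SE 0.21, adjusted p = 0.00641 in edgeR). It did not overlap between the genotypes and was called under every alternative tried. Tgfb1, the ligand (log2FC −0.68, SE 0.22, edgeR adjusted p = 0.0363), Tgfbr2, its type II receptor (log2FC −0.47, SE 0.14, adjusted p = 0.0272), and Pmepa1, a feedback inhibitor (log2FC −0.27, SE 0.09, adjusted p = 0.0467), were lower with overlap. Each of these calls was lost when 1 of several mice was left out. That of Tgfb1 was lost without WT replicates 1, 3 or 4 or cKO replicates 1, 2 or 3, that of Tgfbr2 without WT replicates 3, 4 or 5 or cKO replicates 2, 3 or 5, and that of Pmepa1 without any mouse but cKO replicate 4. All 3 were also lost without WT replicates 3 and 4 together. The log2FC stayed negative when each mouse was left out, at −0.82 to −0.55 for Tgfb1, −0.57 to −0.37 for Tgfbr2 and −0.32 to −0.22 for Pmepa1.

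The 3 E proteins that ID proteins bind were all tested. Tcf3 was lower in cKO crypts, at 80.0 ± 4.76 against 102 ± 8.82 CPM (SD, n = 5 each; log2FC −0.35, SE 0.07, adjusted p = 0.00505 in edgeR), without overlap and under every alternative tried. Tcf4 and Tcf12 did not pass. So 1 of these 3 partners passed (33.3%), which is near the 28.3% of all tested genes.

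**Figure D5:**
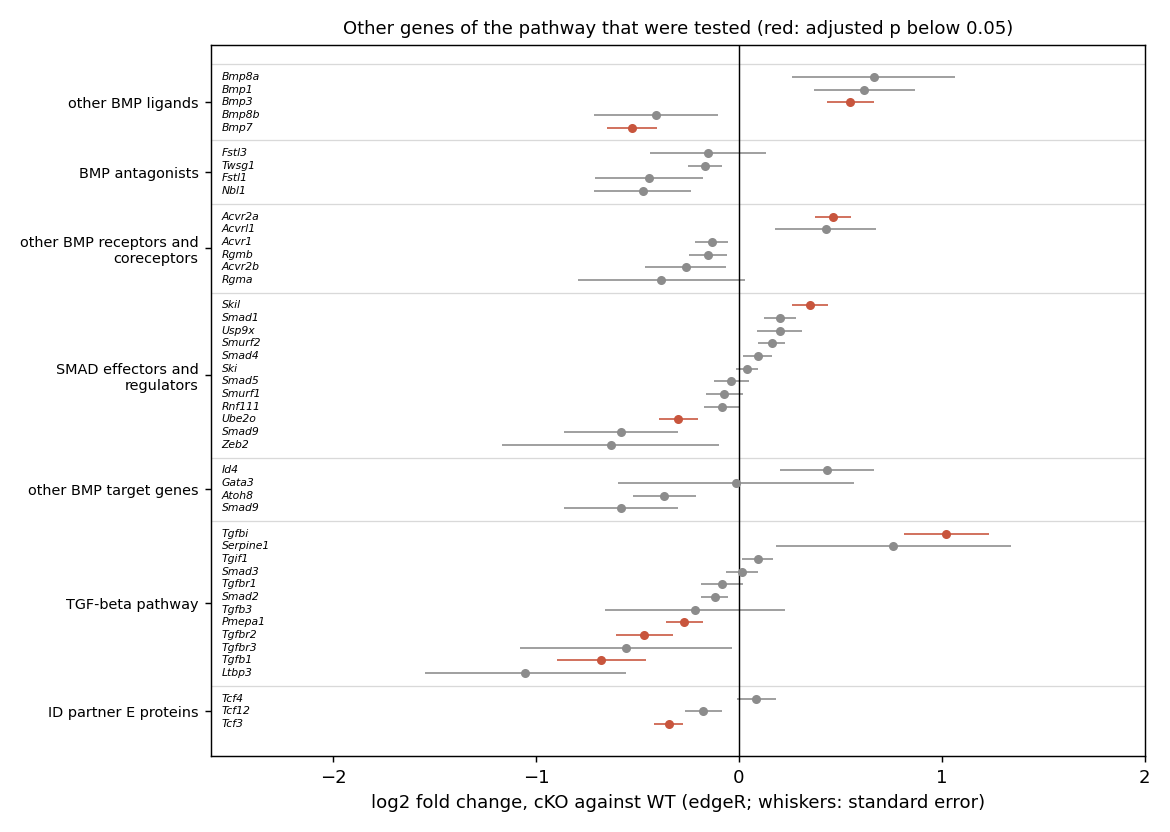
Log2 fold change, cKO against WT (x axis, edgeR; whiskers, standard error), of the tested genes of the 7 lists, grouped by role, with Smad9 in 2 of the lists. Red points passed an adjusted p of 0.05: Bmp3, Acvr2a, Skil and Tgfbi lie to the right of 0, and Bmp7, Ube2o, Tgfb1, Tgfbr2, Pmepa1 and Tcf3 lie to the left.

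The summed markers of cells other than epithelium overlapped between the genotypes, while single markers were lower. Endothelial markers, led by Esam and Egfl7, summed to 7.43 to 14.4 TPM in WT and 5.69 to 8.50 TPM in cKO libraries, and 2 of 5 tested ones, Pecam1 and Plvap, were lower. Smooth muscle markers, led by Tagln and Acta2, summed to 1.79 to 4.59 TPM in WT and 1.06 to 3.68 TPM in cKO, and 1 of 4 tested, Acta2, was lower. Immune markers, led by Gzma and Gzmb, summed to 149 to 426 TPM in WT and 146 to 442 TPM in cKO, and 1 of 11, Jchain, was lower. In the order given these are 40%, 25% and 9.09% of the tested markers, beside 12.7% of all tested genes called lower. With so few markers, the counts are not read as a change of these cells. BMP ligands, antagonists, Bambi and the ID genes are known to be used by several of these cells, and the part of such cells in the levels above was not tested.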

How the data were processed

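RNA of jejunal crypts, released after the villi had been removed, was sequenced from polyadenylated libraries of 5 WT and 5 Arid3a cKO mice, 1 per library. The authors used nf-core/rnaseq, with STAR to align the reads and RSEM to assign them to genes of the Ensembl annotation of GRCm38. The values deposited by the authors for each library are the expected count of each gene, not normalized between libraries, its TPM and FPKM, and its length and effective length in bases. RSEM divides reads that match several genes among them. The strand setting is not given in the sources used here, so overlapping antisense genes could share counts. The FPKM values that the authors deposited were not used. Symbols and coordinates were taken from GENCODE for GRCm38, which named 54723 of 54838 genes.

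Expected counts were rounded to whole numbers (those of 9 of the 10 members were whole as deposited) for edgeR 4.0.16 under R 4.3.3. The filter was filterByExpr (minimum count 10, minimum total 15). TMM factors were 1.00 to 1.08 in WT and 0.934 to 0.986 in cKO libraries, without overlap. The genotypes were compared by edgeR's robust quasi-likelihood test with Benjamini-Hochberg adjustment over 14719 genes. Log2 ratios of expected counts plus 0.5 within each library were compared by two-sided exact permutation tests, whose smallest p for 5 against 5 is 0.00794. P-values measure the spread between these mice. Totals of 27050455 to 31053622 counts limit precision for genes near 1 CPM, and reads carry no molecular identifiers.

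The members and lists were chosen with earlier results of these data known. Genes named were the members, Arid3a, up to 3 called genes in each direction per pathway list with at least 1 CPM and the smallest adjusted p, the 2 most abundant markers per list, and the 3 genes most like Id1 and Id3. Pecam1, Plvap, Jchain, Nog, Atoh8, Tcf4, Tcf12 and Smad9, and the genes under the closing observations, were named after their values were seen. Alternatives were DESeq2 1.42.0, limma 3.58.1 on voom values and on log2(TPM + 0.1) and log2(TPM + 0.5), no filter, at least 10 counts per library, RLE factors, scaling by library size only, effective length as an offset, unrounded counts, the replicate number as a block, and leaving out each mouse. Leaving out WT replicates 3 and 4 together was chosen after seeing the data. It leaves fewer WT mice, which by itself can lower the number of calls, and no other pair was left out for comparison.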

Additional observations from a re-analysis of the deposited data

Results flagged for a closer look

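In groups of 5 libraries, an extreme library was singled out by its gap to the nearest other, divided by the range of the group. The limit was Dixon's critical value of 0.71, which chance exceeds in about 1 of 20 groups. The members, Arid3a and marker sums were screened in both genotypes, so some flags are to be expected by chance alone. For Bmp4, cKO replicate 2 was far above the other cKO libraries (gap 0.795 of the range), with 5 counts beside 0, 0, 1 and 1. The critical value assumes normally spread values, which counts this low are not. For Smad6, WT replicate 5 was far above the other WT libraries (0.805 of the range), at 7.82 CPM where the next had 6.23 CPM. The summed fibroblast markers of cKO replicate 4 (78.3 TPM) were far above those of the other cKO libraries (0.788 of the range). The high values of Id1 and Id3 in WT replicate 5 did not exceed the critical value.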

How the results depend on the processing

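The calls of Bmp2, Smad7 and Bambi were kept under DESeq2, RLE factors, voom, no filter, 10 counts in every library and unrounded counts. Bmp2 was not called with library size only (0.44, adjusted p = 0.0581), on log2(TPM + 0.1) (0.46) or log2(TPM + 0.5) (0.39), or without WT replicates 3 and 4 together (0.48), and Smad7 not with the length offset (0.35), on TPM (0.24 and 0.22) or without that pair (0.34). Without the pair Bambi was also lost (−0.46), Bmpr1a gained (0.25), and 2143 genes were called (1472 higher, 671 lower). The cause was not tested. Leaving out each mouse gave 0.49 to 0.71 for Bmp2, −0.037 to 0.13 for Bmpr2, −0.040 to 0.18 for Smad6, −0.26 to 0.015 for Id3, and 6 to 13 called genes in the pathway lists. Over all genes it gave 3007 to 4684 called. Signs turned for Bmpr1a on both TPM scales (−0.012 each), for Bmpr2 with library size only (−0.093) and on TPM (−0.023 and −0.025), and for Smad6 with library size only (−0.046). Those scalings move the median of all genes by −0.13 (library size only) and −0.10 (log2(TPM + 0.1)). Relative to that median, Bmpr1a was 0.12 on log2(TPM + 0.1), beside 0.20 in the main fit. With library size only, Bmpr2 was 0.07 and Smad6 0.12, beside 0.07 and 0.11 in the main fit. With library size only 5571 genes were called, 1541 higher and 4030 lower, against 2298 and 1869. The ratio Id1 to Id3 was 0.0037 on TPM and −0.081 to 0.056 without each mouse, and Id2 to Id3 was −0.017 to 0.17 without each mouse. Replicate numbers did not pair the mice (correlations of deviations −0.16, 0.03, 0.10, −0.14 and −0.21, none highest with its own number). With the replicate number as a block, 3052 genes were called, and the values were 0.58 for Bmp2, 0.17 for Bmpr1a, 0.07 for Bmpr2, 0.07 for Smad6, 0.45 for Smad7, −0.67 for Bambi, −0.16 for Id1, −0.06 for Id2, −0.15 for Id3 and −1.94 for Arid3a, with no change of call among the members; the pathway lists had 7 called genes, and the ratios, tested by 32 sign flips whose smallest p is 0.0625, could not pass. Arid3a could not be fitted with 10 counts in every library, since 1 cKO library had 9. At 27 to 31 counts per CPM before TMM factors, Bmp4, with 0 to 8 counts a library, was too shallow for the filter.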

Other observations

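Further genes of the pathway that did not pass the test had the following values. Smad1, a signal-transducing SMAD of the BMP branch, was at 50.1 to 64.8 CPM in WT and 60.6 to 73.6 CPM in cKO (log2 fold change 0.20, edgeR adjusted p = 0.0735). Smad4, the common partner, was at 103 to 134 CPM in WT and 119 to 130 CPM in cKO (0.09, edgeR adjusted p = 0.347). Twsg1, a secreted modulator of BMP ligands, was at 52.0 to 68.2 CPM in WT and 48.1 to 57.0 CPM in cKO (−0.17, edgeR adjusted p = 0.160). Id4, the remaining member of the ID family, was at 1.10 to 2.05 CPM in WT and 1.33 to 2.27 CPM in cKO (0.43, edgeR adjusted p = 0.180).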
